A study of Mus musculus with 12 samples.

Results

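Endothelin 1, its B receptor, and growth factors that macrophages can make were examined as 10 genes: Edn1, Ednrb, Hbegf, Ereg, Areg, Vegfa, Pdgfb, Tgfb1, Inhba, and Igf1. They were chosen by name, and all 10 were found among the 43626 gene identifiers counted in mouse BMDMs, which are macrophages grown in culture from bone marrow. For 6 hours the cells were given LPS at 10 ng/mL, 3′SL at 100 μg/mL, both agents, or PBS, and 3 RNA-Seq libraries were made for each of the 4 conditions. 3′SL is a milk sugar of lactose and sialic acid, which the labels write as HMO, and LPS is a bacterial membrane component that activates TLR4. The labels name no strain, genotype, age, or donor for these libraries, and the injections of mice they list as treatment do not apply to cultured cells, so doses and hours were taken from the study's text. The study calls its RNA-Seq replicates biologically independent, but the labels do not say which libraries share a culture or donor, and p-values here measure the spread between libraries.

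Endothelin 1 is a small vasoconstrictor peptide that is cut from a longer precursor by endothelin converting enzymes and acts on the A and B endothelin receptors. Endothelial cells are its best-known source, and activated macrophages also make it. Among the growth factors, Hbegf, Ereg, and Areg encode membrane-bound ligands of the EGF receptor that proteases release, Vegfa and Pdgfb encode ligands that act on vessels and mesenchymal cells, Tgfb1 and the activin A subunit gene Inhba encode ligands of one superfamily, and Igf1 encodes a ligand that many tissue macrophages make.

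Between 20411741 and 26851890 reads were counted on genes per library (median 23375851), and 14308 genes, 8 of the 10 members among them, had enough counts to be tested. Levels are CPM, the counts relative to library sizes after edgeR's TMM scaling. To be called, a gene needed a change of at least 1.5-fold and, in edgeR's quasi-likelihood test, an adjusted p (Benjamini-Hochberg) under 0.05. After the condition means were removed, the libraries fell into 3 sets of 4 with 1 library of each condition, which the labels do not describe, and values are always listed, and libraries numbered, in the order of these sets. The 8 macrophage markers were all tested, with a summed level of 17575 to 27959 CPM in every library. The summed level of 8 fibroblast and stromal markers was 647 to 746 CPM in set 1, 28.9 to 41.6 in set 2, and 70.0 to 110 in set 3. The 8 endothelial markers summed to 44.9 to 76.5 CPM in all libraries, of which Vwf made up 18.2 to 68.6, Cdh5 1.52 to 18.5, Kdr 2.78 to 11.3, and Pecam1 0.856 to 5.37. The other 4 endothelial markers, Tek, Cldn5, Emcn, and Egfl7, reached no more than 0.0977, 0.0861, 0.391, and 0.437 CPM. In such bulk libraries, fewer cells of a type and less RNA per cell cannot be told apart.

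LPS raised the endothelin ligand and its B receptor. Edn1 went from almost no reads in PBS to a mean of 40.7 ± 22.0 CPM with LPS (SD, n = 3), and its mean with LPS + 3′SL was 3.81 ± 2.67 CPM. Ednrb was higher in every library that had received 3′SL, LPS, or both than in any PBS library. The differences with 3′SL, lower for Edn1 beside LPS and higher for Ednrb without it, were called by DESeq2 and when the library sets entered edgeR as a block, but not by edgeR over the conditions. Of the other members, Hbegf was called for LPS + 3′SL against 3′SL, and Vegfa, Pdgfb, Tgfb1, and Igf1 differed by less than 1.5-fold in the fit of each comparison.

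Edn1 lies on chromosome 13 from 42301476 to 42307990 on the plus strand (GRCm38), and Ednrb on chromosome 14 from 103814625 to 103844402 on the minus strand. The sequence around the RefSeq start site of Edn1 and the 250 bases before that of Ednrb are shown because these are the members with the largest differences in the 3′SL comparisons. Both are from RefSeq on GRCm38.p6, written 5′ to 3′ on the strand of the gene, and capitals mark matches to the motifs searched. The Edn1 stretch, chr13:42301376-42301505 on the plus strand, runs from 100 bases before the start site through 30 bases after it, and the Ednrb stretch is chr14:103843702-103843951 on the minus strand. The gene positions are from GENCODE, whose start of Edn1 is the same base, whereas the RefSeq start site of Ednrb lies 701 bases downstream of the GENCODE start, so the Ednrb stretch is inside the GENCODE gene.
Edn1: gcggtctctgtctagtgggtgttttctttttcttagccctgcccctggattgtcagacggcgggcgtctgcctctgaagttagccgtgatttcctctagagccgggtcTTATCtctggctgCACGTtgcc
Ednrb: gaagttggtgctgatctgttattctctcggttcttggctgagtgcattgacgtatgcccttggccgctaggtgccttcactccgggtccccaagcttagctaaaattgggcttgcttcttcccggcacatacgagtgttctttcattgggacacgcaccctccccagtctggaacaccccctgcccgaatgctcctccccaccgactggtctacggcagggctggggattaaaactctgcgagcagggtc

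In windows of 300 bases, 250 before and 50 after a start site, 6 motifs were searched on both strands, with no overlap between the matches shown. They were GATAA, bound by GATA factors, ACGTG, the core of the hypoxia response element, TATAAA, TGACGTCA, the cAMP response element, TGACTCA or its reverse complement, bound by AP-1, and the NF-κB consensus. The Edn1 window held GATAA on the opposite strand at position 9 after the start and ACGTG on the opposite strand at position 22. Of all 32851 windows, 25.4% held GATAA and 19.6% held ACGTG. The Ednrb window held none of the 6 motifs. RefSeq windows were at hand for 7 members in 8 windows, and 0 of the 8 held the AP-1 motif in this exact form, which 5.20% of all windows held. Variants of the motif were not searched. Areg had TATAAA at position −31 and TGACGTCA at −61, and Inhba had TATAAA at −91, motifs that 13.6% and 1.79% of all windows held.

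In PBS, Edn1 had 14, 0, and 3 reads in the 3 libraries, or 0.402, 0, and 0.101 CPM. In 3′SL it had 9, 3, and 3 reads, or 0.335, 0.119, and 0.119 CPM. These 6 libraries held at most 14 reads of Edn1 each, and set 1, the set with the highest stromal marker level, held the most under both conditions. With LPS the level was 23.7, 32.9, and 65.6 CPM from 486, 679, and 1069 reads, and every LPS library lay above every PBS library. The rise was 223-fold in the fit (log2 fold change 7.80 ± 0.89 SE, adjusted p = 4.65e-05, edgeR), and it ranked 45th from the highest among all genes tested. Within the sets, Edn1 was 59.0-fold higher in set 1 (95% exact counting interval 34.8 to 109). In set 2, where PBS had 0 reads, it was 312-fold higher than a floor of 3 counts, with a lower 95% exact counting limit of 253. In set 3, where PBS had 3 reads, the ratio was 649 with a 95% exact counting interval from 221 to 3150. The gene was called whichever library was left out, with a log2 fold change of 9.48 without PBS library 1 and otherwise nearer to that of all libraries. The endothelial marker sum, given because Edn1 is well known from those cells, was 44.9 to 76.5 CPM in PBS, 48.1 to 60.3 in the LPS libraries, and 47.9 to 51.8 with both agents. Within that sum, Cdh5 was at 1.52 to 4.82 CPM in PBS, 6.64 to 18.0 with LPS, and 8.01 to 18.5 with both agents, and Vwf at 31.1 to 68.6, 19.3 to 41.4, and 18.2 to 32.6 CPM. The part of these markers in the Edn1 level was not tested.

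With LPS + 3′SL, Edn1 stood at 1.55, 3.13, and 6.75 CPM from 32, 68, and 126 reads. The highest of these levels was below the lowest LPS level, and the libraries kept 6.54%, 9.51%, and 10.3% of the level of the LPS library of their own set. The fitted change from LPS was 10.7-fold lower (log2 fold change −3.42 ± 0.69 SE, 95% interval −4.94 to −1.90), ranking 3rd from the lowest of the 14308 genes, and −4.11 on the log2 scale without LPS + 3′SL library 3. Its unadjusted p was 4.43e-04 and its adjusted p was 0.157 in edgeR, so Edn1 was not called in this fit. DESeq2 called it (adjusted p = 4.47e-04), and so did edgeR with the library sets as a block (adjusted p = 0.0015). The block fit called it without set 1 and without set 3 but not without set 2, where the log2 fold change was −3.48 and 0 of 14426 genes were called. The level with LPS + 3′SL was still above that with 3′SL alone in all sets, and this rise was called (19.1-fold, log2 fold change 4.26 ± 0.85 SE, adjusted p = 0.0026, edgeR), with a log2 fold change of 4.93 without 3′SL library 1 and 3.57 without LPS + 3′SL library 3. The effect of 3′SL on the log2 scale was −3.42 with LPS and 0.12 ± 1.07 SE without it, where the level rests on 17 PBS and 15 3′SL reads. The interaction, which tests this difference, had an unadjusted p of 0.0198 and an adjusted p of 0.746 in edgeR, 0.148 in DESeq2, and 0.166 with the block. The exons of Edn1 overlap those of Gm47118 on the other strand by 35 bases, and since the strand setting of the counting is not given in the sources used here, reads from those bases cannot be told apart.

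**Figure D1:**
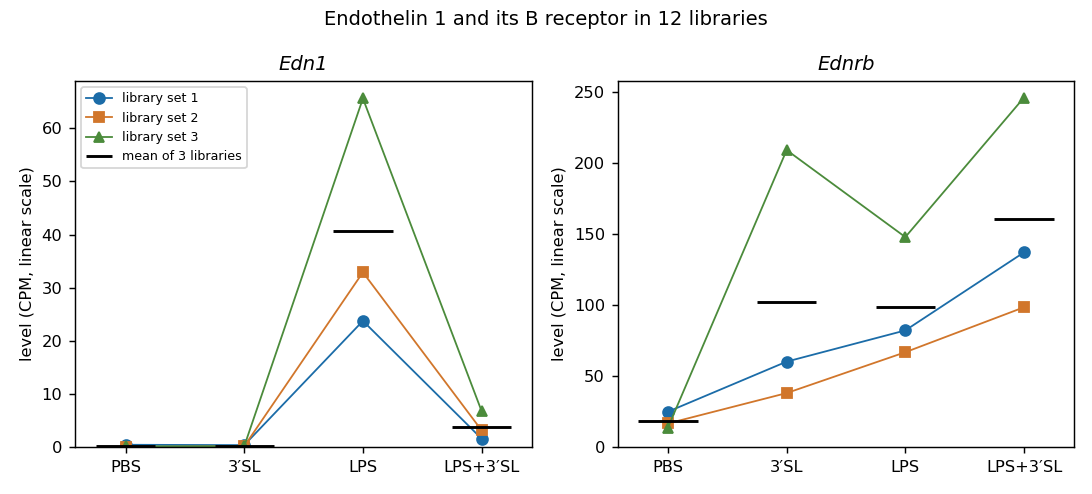
Level of Edn1 (left) and Ednrb (right) in CPM on linear axes that differ between panels, for the 4 conditions. Each symbol is 1 library, lines join libraries of the same set, and black bars are means of 3 libraries. Edn1 lies at 23.7–65.6 CPM in the LPS libraries and 1.55–6.75 in those with both agents, while Ednrb is highest with LPS + 3′SL in each of the 3 sets.

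Ednrb encodes the B endothelin receptor, which on vessels and other cells both signals and clears endothelin. It was at 24.8, 16.5, and 13.7 CPM in PBS and at 60.1, 37.9, and 209 CPM in 3′SL. No 3′SL library was as low as a PBS library, although the 3′SL library of set 3 stood far above the other two. The difference was 2.42-fold, 2.29-fold, and 15.3-fold within the sets and 5.58-fold in the fit (log2 fold change 2.48 ± 0.62 SE, 95% interval 1.12 to 3.84). It ranked 44th from the highest of all genes, with an unadjusted p of 0.0021 and an adjusted p of 0.281 in edgeR. Ednrb was called by DESeq2 (adjusted p = 0.0051) and with the sets as a block (log2 fold change 2.09, adjusted p = 0.0158). Leaving out 3′SL library 3 gave a log2 fold change of 1.39 in edgeR. With all of set 3 left out, the block fit still called it, at a log2 fold change of 1.22 (2.24% of all genes called), but it did not without set 1 or without set 2, where the log2 fold changes were 2.56 and 2.52 and the fits called 2 and 3 genes in all.

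With LPS, Ednrb reached 82.0, 66.7, and 148 CPM, above all PBS libraries, and was called (5.38-fold, log2 fold change 2.43 ± 0.62 SE, adjusted p = 0.0077, edgeR). With LPS + 3′SL it was at 137, 98.3, and 246 CPM, the highest of the 4 conditions in each set. Relative to LPS alone this was 1.67-fold, 1.47-fold, and 1.66-fold higher in the sets, and 0.70 ± 0.58 SE on the log2 scale in the fit (adjusted p = 1, edgeR). The block fit without set 3 called this difference (log2 fold change 0.66, adjusted p = 0.000405, 2.58% of all genes called), and the block fit over all sets did not (adjusted p = 0.434). The log2 effect of 3′SL was 2.48 without LPS and 0.70 with it, and the interaction of −1.78 ± 0.83 SE was not called (unadjusted p = 0.0563, adjusted p = 0.819, edgeR). Against 3′SL alone, LPS + 3′SL differed by 0.65 ± 0.58 SE on the log2 scale (adjusted p = 0.432, edgeR), and by 1.72 with a call without 3′SL library 3 (adjusted p = 0.0147). The block fit without set 3 also called it, at a log2 fold change of 1.31 (adjusted p = 2.94e-08, 33.6% of all genes called). Without that library the interaction was −0.69.

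Per kilobase of exon, the level of Ednrb was 1.73, 1.02, and 1.13 times that of Edn1 in the LPS libraries and 44.2, 15.8, and 18.3 times in the LPS + 3′SL libraries. The receptor and the ligand were near the same level per length in the LPS libraries and far apart in all LPS + 3′SL libraries.

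Of the 7 other genes listed for the endothelin system, 2 were tested, both converting enzymes. LPS raised Ece2 from a mean of 10.1 to 20.1 CPM (log2 fold change 0.99 ± 0.18 SE, adjusted p = 0.0010, edgeR) and Ece1 from 30.5 to 50.1 CPM (0.72 ± 0.25 SE, adjusted p = 0.0360). With LPS + 3′SL their means were 16.0 and 44.1 CPM, and neither difference from LPS was called. Of the 5110 exonic bases of Ece2, 2937 overlap exons of Gm49333 on the same strand. Gm49333 is not among the genes counted, so its reads cannot be told apart from those of Ece2 there. Edn2 and Kel had 0 reads in all libraries, Edn3 reached 0.0796 CPM, and the A receptor gene Ednra and the peptidase gene Mme reached no more than 0.728 and 0.825 CPM. Ednrb was therefore the receptor gene of this system with counts high enough to test.

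By the root mean square difference of centred log2 CPM over the 12 libraries, the 5 genes with profiles nearest to that of Edn1 were Tnfsf15 (0.678), F10 (0.754), H2-M2 (0.884), Zfp811 (0.903), and Adora2a (0.903). Tnfsf15, a TNF superfamily ligand, had means of 0.0702 CPM in PBS, 0.216 in 3′SL, 17.9 with LPS, and 4.27 with LPS + 3′SL. F10, which encodes coagulation factor X, had means of 3.54, 2.40, 94.5, and 31.4 CPM in the same order. For Adora2a, an adenosine receptor gene, they were 0.249, 0.248, 32.6, and 12.0 CPM. These genes were picked for nearness to Edn1 over these same libraries, so a like pattern of means follows from the choice. Their means were low without LPS and higher with it, and they were intermediate in the LPS + 3′SL libraries. From LPS to LPS + 3′SL, the log2 fold changes of all 5 lay between −2.07 and −1.21, against −3.42 for Edn1. None of these was called in edgeR, which called 0 of 14308 genes in this comparison.

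Among the EGF receptor ligands, Hbegf was the member with counts high enough to test. Hbegf was at 9.07, 1.68, and 3.74 CPM in PBS and at 14.9, 11.7, and 25.2 CPM with LPS. All LPS libraries lay above all PBS libraries, and the fitted difference was 3.55-fold (log2 fold change 1.83 ± 0.75 SE, 95% interval 0.18 to 3.48). It missed the call with an adjusted p of 0.0670 in edgeR, was called by DESeq2 (0.0180) and the block fit (0.0024), and was called in edgeR without PBS library 1 (log2 fold change 2.66) and without 3′SL library 1 or 2. The PBS and 3′SL libraries of set 1, where the stromal marker sum was 647 and 704 CPM, had the highest Hbegf levels of their conditions, and the part of the stromal markers in this was not tested.

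With 3′SL alone Hbegf was at 6.40, 0.716, and 1.75 CPM, and with LPS + 3′SL at 13.3, 7.999, and 18.9 CPM. It was lower in the 3′SL library than in its partner without 3′SL in all 6 pairs, but the fitted changes of −0.71 ± 0.75 SE without LPS (adjusted p = 0.803) and −0.36 ± 0.73 SE with LPS (adjusted p = 1, edgeR) were within the spread between libraries. LPS + 3′SL against 3′SL was called (4.51-fold, log2 fold change 2.17 ± 0.77 SE, adjusted p = 0.0468, edgeR). Without 3′SL library 1 the log2 fold change was 3.44. The call lay close to the threshold and was lost, with an adjusted p up to 0.133, when PBS library 3, 3′SL library 2 or 3, or any of the LPS or LPS + 3′SL libraries was left out.

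Ereg (chromosome 5, 91074622 to 91093646), which encodes epiregulin, was counted with 0 to 20 reads in a library, at most 0.744 CPM, and had 0 reads in all 4 libraries of set 2. Areg, which encodes amphiregulin and lies on the same chromosome from 91139599 to 91148432, had 0 to 2 reads, at most 0.107 CPM. A count of 3, the floor used for a gene with 0 reads, came to 0.105 CPM in the PBS library of set 2. Neither was tested, and differences between conditions were not detectable at this depth. The highest Ereg count was in the 3′SL library of set 1, the set with the most stromal marker reads.

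Of 18 further genes listed for EGF family ligands, receptors, and shedding, 12 were tested, and LPS raised 3 and lowered 2. Over all genes, 38.5% were called in this comparison. Nrg1, another EGF family ligand, went from 0.117 to 1.16 CPM in the condition means (adjusted p = 0.0166, edgeR). Rhbdf2, whose product iRhom2 brings the sheddase ADAM17 to the cell surface, went from 56.7 to 412 CPM (log2 fold change 2.86 ± 0.45 SE, adjusted p = 3.86e-04). Adam17 itself went from 223 to 785 CPM (log2 fold change 1.82 ± 0.15 SE, adjusted p = 6.19e-06). The mRNAs of the protease that releases membrane-bound Hbegf and of the factor that carries it were thus both higher. Adam10, another protease gene listed for shedding and named after its values were seen, was called lower in edgeR. Lrig1, an inhibitor of EGF receptors, fell by 1.61 on the log2 scale (adjusted p = 0.0125, edgeR). The list's median log2 fold change was 0.60, against −0.061 over all genes. None of the 12 was called for 3′SL with or without LPS in the fit over conditions. With the sets as a block, Rhbdf2 was called for 3′SL against PBS, and Rhbdf2 and Errfi1, a feedback inhibitor of the EGF receptor named after its values were seen, were called lower in the interaction.

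Vegfa lies on chromosome 17 from 46016993 to 46032369 on the minus strand. It was the member with a window that held an NF-κB consensus match, which 4.51% of all windows held. Another RefSeq window of Vegfa held no such match. That window had ACGTG, a motif of 19.6% of all windows, at position −211 from its own start site. The 250 bases before the start site of the window with the NF-κB match are shown because of that match. The stretch is chr17:46032378-46032627 on the minus strand (GRCm38.p6, RefSeq), and capitals mark GATAA at position −181 and the NF-κB consensus at −118 from the start site.
Vegfa: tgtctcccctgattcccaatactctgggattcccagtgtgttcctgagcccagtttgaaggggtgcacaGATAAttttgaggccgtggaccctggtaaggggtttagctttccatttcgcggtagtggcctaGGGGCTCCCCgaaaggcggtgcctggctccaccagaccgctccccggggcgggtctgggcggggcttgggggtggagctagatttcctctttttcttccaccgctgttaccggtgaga

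Vegfa, the main angiogenic VEGF, was at 73.8, 58.5, and 156 CPM in PBS, 83.8, 83.9, and 238 CPM in 3′SL, 71.2, 54.6, and 130 CPM with LPS, and 81.8, 62.2, and 138 CPM with LPS + 3′SL. Set 3 was highest under every condition, and the conditions overlapped. In all 6 pairs the library with 3′SL was higher than its partner, by 1.14-fold, 1.43-fold, and 1.53-fold without LPS and by 1.15-fold, 1.14-fold, and 1.06-fold with LPS. The fitted change for 3′SL against PBS was 0.49 ± 0.52 SE on the log2 scale (adjusted p = 0.804, edgeR). With the sets as a block it was 0.45 ± 0.12 SE with an adjusted p of 0.0492, under the fold required. For LPS against PBS the log2 fold change was −0.17 ± 0.52 SE (adjusted p = 0.823). LPS + 3′SL against 3′SL gave −0.53 ± 0.52 SE (adjusted p = 0.482, edgeR). With the sets as a block it was −0.43 ± 0.12 SE with an adjusted p of 0.0106, again under the fold required.

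Pdgfb, the PDGF B chain gene on chromosome 15 (79995874 to 80014977), was at 24.6, 25.7, and 77.5 CPM in PBS, 27.8, 28.1, and 69.3 CPM in 3′SL, 35.9, 32.7, and 41.6 CPM with LPS, and 24.99, 21.9, and 40.5 CPM with LPS + 3′SL. The sets differed in direction under LPS: the level was 1.46-fold and 1.27-fold higher in sets 1 and 2 and 1.86-fold lower in set 3. The fitted log2 fold change of −0.21 ± 0.48 SE (adjusted p = 0.759, edgeR) averages over these and turned to 0.46 in a block fit without set 3. With LPS + 3′SL, Pdgfb was lower than with LPS in all sets, by 1.44-fold, 1.49-fold, and 1.03-fold (log2 fold change −0.33 ± 0.48 SE, adjusted p = 1).

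Of the 14 other VEGF and PDGF family genes, 13 were tested, and LPS raised 3 and lowered 1, where 38.5% of all genes were called. Flt1, which encodes VEGF receptor 1, rose from a mean of 1.49 to 13.3 CPM (log2 fold change 3.16 ± 0.31 SE, adjusted p = 1.53e-05, edgeR). The coreceptor gene Nrp2 rose from 821 to 2367 CPM (adjusted p = 6.56e-06), while Nrp1 fell from 725 to 268 CPM (adjusted p = 2.58e-04). Kdr, which encodes VEGF receptor 2 and is also among the endothelial markers, rose from 4.86 to 9.66 CPM (adjusted p = 0.0183). Receptor and coreceptor genes thus changed in both directions. The list's median log2 fold change was 0.99, and 0 of the 13 were called for 3′SL with or without LPS by edgeR, DESeq2, or the block fit.

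**Figure D2:**
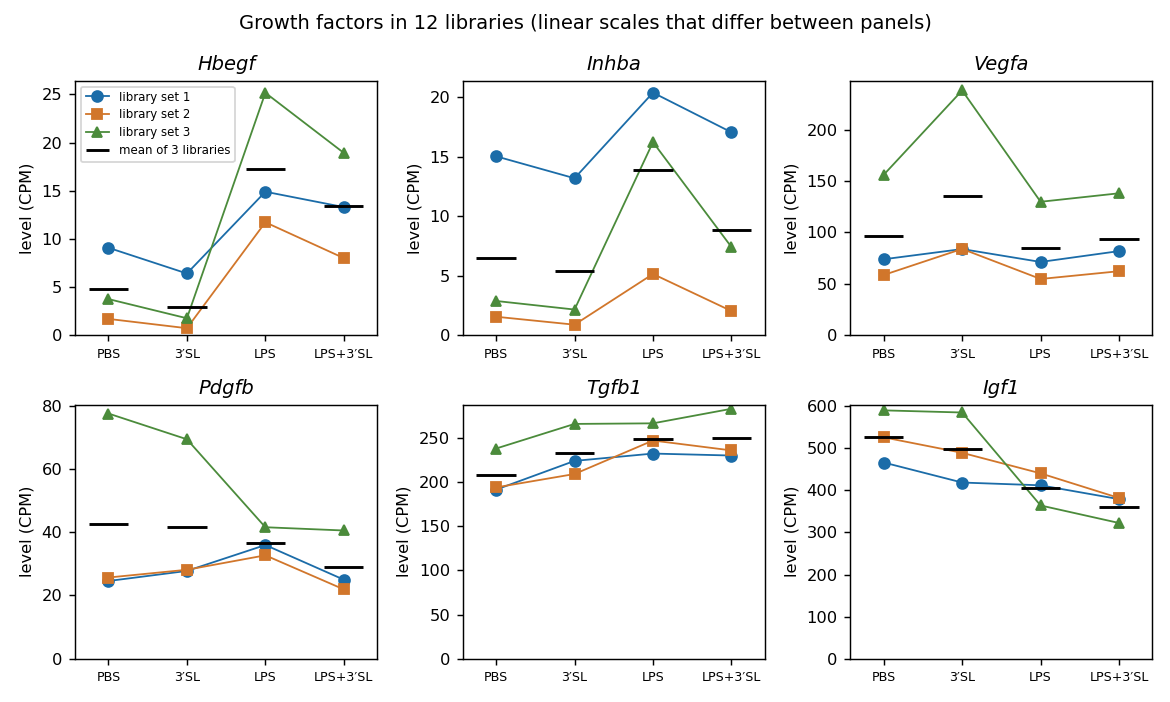
Levels of the 6 tested growth factor genes in CPM on linear axes that start at 0 and differ between panels. Each symbol is 1 library, lines join libraries of the same set, and black bars are means of 3 libraries. Hbegf is higher and Igf1 lower with LPS in each set, and Inhba is highest in set 1 under every condition.

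Tgfb1, which encodes a cytokine that restrains inflammation and drives matrix production, lies on chromosome 7 from 25687002 to 25705077. It was at 191, 194, and 238 CPM in PBS, 224, 209, and 266 CPM in 3′SL, 232, 247, and 266 CPM with LPS, and 230, 236, and 283 CPM with LPS + 3′SL. The range over all 12 libraries was narrow. The log2 fold change was 0.26 ± 0.13 SE for LPS against PBS (adjusted p = 0.139, edgeR). With the sets as a block it was 0.26 ± 0.07 SE with an adjusted p of 0.0071, under the fold required. Within the sets the level was 1.21-fold, 1.27-fold, and 1.12-fold higher with LPS. Under total counts, which moved the median of all genes from −0.061 to −0.71, the log2 fold change was −0.40. LPS + 3′SL against 3′SL gave 0.10 ± 0.13 SE (adjusted p = 0.619) with TMM factors and −0.38 under total counts. For 3′SL it was 0.17 ± 0.13 SE without LPS (adjusted p = 0.738) and 0.0059 ± 0.13 SE with LPS (adjusted p = 1).

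Inhba, whose product forms activin A, lies on chromosome 13 from 16011851 to 16031621. It was at 15.02, 1.54, and 2.87 CPM in PBS, 13.2, 0.875, and 2.15 CPM in 3′SL, 20.4, 5.13, and 16.2 CPM with LPS, and 17.0, 2.02, and 7.40 CPM with LPS + 3′SL. Set 1, with the highest stromal marker level, was highest under every condition, and the part of the stromal markers in this was not tested. It was 1.36-fold, 3.33-fold, and 5.65-fold higher with LPS than with PBS within the sets. The fit gave a log2 fold change of 1.10 ± 1.09 SE (adjusted p = 0.449, edgeR), and the block fit 1.55 ± 0.37 SE with a call (adjusted p = 0.0036). The block fit also called it without set 1 (2.14, adjusted p = 0.00055). The 3′SL library was lower than its partner in all 6 pairs, by 1.20-fold, 2.54-fold, and 2.19-fold with LPS (log2 fold change −0.66 ± 1.09 SE, adjusted p = 1, and −0.94 ± 0.37 SE with an adjusted p of 0.239 with the block).

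The 37 other genes of the TGF-beta and activin list had 35 tested members, of which LPS raised 8 and lowered 5. That is near the share of all genes called, 38.5%. Itgb8, a subunit of an integrin that activates latent TGF-beta, rose from a mean of 0.102 to 15.2 CPM (adjusted p = 8.17e-06, edgeR), and the coreceptor gene Eng rose from 40.0 to 181 CPM (adjusted p = 1.05e-06). Of 8 receptor genes tested, 3 rose and 2 fell. Tgfbr1, the type I TGF-beta receptor, went from 181 to 52.9 CPM (adjusted p = 4.08e-06) and Acvr2b, a type II activin receptor, from 0.961 to 0.256 CPM (adjusted p = 0.0073). The 3 that rose, named after their values were seen, were the type I receptor genes Acvr1 (21.6 to 61.5 CPM) and Acvr1b (37.4 to 80.1 CPM) and the type II receptor gene Acvr2a (6.48 to 14.1 CPM), with adjusted p of 7.48e-05, 0.0019, and 0.0027 in edgeR. The list's median log2 fold change was 0.30. For 3′SL, 0 of the 35 were called in edgeR, while Thbs1, which encodes thrombospondin 1 and was named after its values were seen, was called with the block for 3′SL against PBS (log2 fold change 1.47, adjusted p = 0.0100) and in the interaction (−1.96, adjusted p = 0.0179). Its means were 283 CPM in PBS, 742 in 3′SL, 631 in LPS, and 467 with both agents. Itgb8 had a mean of 7.33 CPM in the LPS + 3′SL libraries, and DESeq2 called this gene in the interaction.

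Igf1, on chromosome 10 from 87858265 to 87937042, was at 466, 526, and 589 CPM in PBS, 418, 489, and 584 CPM in 3′SL, 412, 440, and 364 CPM with LPS, and 379, 382, and 322 CPM with LPS + 3′SL. All LPS libraries lay below all PBS libraries, and all LPS + 3′SL libraries below all 3′SL libraries. The log2 fold change was −0.38 ± 0.15 SE for LPS against PBS (adjusted p = 0.0570, edgeR) and −0.46 ± 0.15 SE for LPS + 3′SL against 3′SL (adjusted p = 0.0319), both smaller than 1.5-fold. Under total counts these were −1.02 and −0.92, and both were called. With 3′SL, Igf1 was lower than in the partner library in all 6 pairs, by 1.11-fold, 1.08-fold, and 1.01-fold without LPS and 1.09-fold, 1.15-fold, and 1.13-fold with LPS, and neither fitted change was called (adjusted p = 0.905 and 1, edgeR). Of 19 other IGF system genes, 13 were tested, and LPS raised 1 and lowered 3, against 38.5% of all genes called. Pappa2 rose from 0.0871 to 0.528 CPM (adjusted p = 0.0322), and the insulin receptor substrate gene Irs2 fell from 8.98 to 2.87 CPM (adjusted p = 0.0125). Igfbp4, a binding protein gene, fell from 293 to 123 CPM (adjusted p = 8.78e-04), and Insr fell from 35.7 to 20.7 CPM (adjusted p = 0.0134, edgeR). The list's median log2 fold change was 0.43, and 0 of its 13 genes were called for 3′SL with or without LPS.

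**Figure D3:**
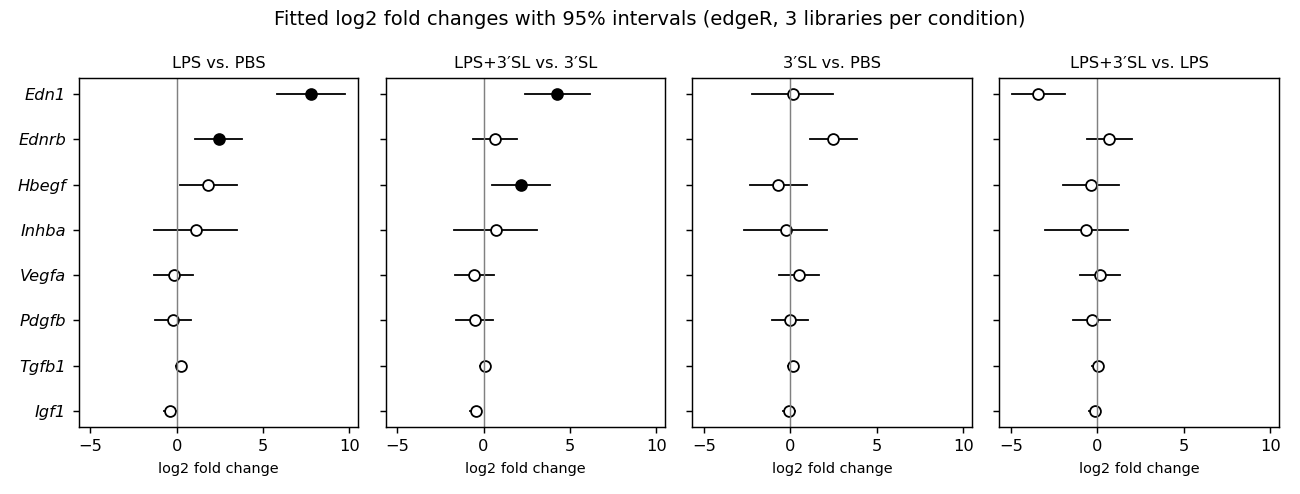
Fitted log2 fold changes (horizontal axis) of the 8 tested members in 4 comparisons, with 95% intervals from edgeR over 3 libraries per condition. Filled points passed an adjusted p of 0.05 and 1.5-fold. Edn1 and Ednrb are filled for LPS vs. PBS and Edn1 and Hbegf for LPS + 3′SL vs. 3′SL, while no point is filled for 3′SL vs. PBS or LPS + 3′SL vs. LPS. The Edn1 interval for 3′SL vs. PBS rests on 17 and 15 reads.

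Over the members together, LPS against PBS called 2 of 8 (Edn1 and Ednrb) in edgeR, where 38.5% of all genes were called. DESeq2 called 3 (39.6% of all genes) and the block fit 4 (44.6%), adding Hbegf and then Inhba. Scaled by total counts, edgeR called 3, with Edn1 and Ednrb higher and Igf1 lower, against 57.3% of all genes. Both changes together called 7, of which 4 were higher and Vegfa, Pdgfb, and Igf1 lower, where 63.6% of all genes were called, 1698 of them higher and 7400 lower. LPS + 3′SL against 3′SL called 2 of 8 (Edn1 and Hbegf) in edgeR against 29.2% of all genes, the same 2 members in DESeq2 (30.9%), and the same 2 with the block (35.8%). In the fit over conditions the members' shares did not exceed those of all genes in either comparison, and all members called were higher. With total counts LPS + 3′SL against 3′SL had Edn1 higher and Igf1 lower (43.4% of all genes), and the block added to that scaling gave 2 higher and 3 lower (51.9%). With TMM factors, the block fit without set 1 called Vegfa and Igf1 lower in this comparison, both at a log2 fold change of −0.61 (adjusted p = 0.0059 and 0.0189, edgeR), beside Edn1, Hbegf, and Inhba higher (32.8% of all genes).

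For 3′SL against PBS, edgeR called 0 of 8 members and 0% of all genes, with 1 member and 1439 genes at an unadjusted p under 0.05. DESeq2 called 1, Ednrb, where 0.615% of all genes were called, and the block fit also called Ednrb alone, against 2.84%. For LPS + 3′SL against LPS, edgeR again called 0 of 8 and 0% of all genes, with 1 member and 995 genes at an unadjusted p under 0.05. DESeq2 and the block fit each called 1, Edn1, where 0.79% and 1.45% of all genes were called. The interaction had 0 calls among members in edgeR (0% of all genes), in DESeq2 (0.308%), and in the block fit (1.55%). At an unadjusted p under 0.05 it held 1 member and 872 genes in edgeR. It held 2 members and 983 genes in DESeq2, and 2 members and 2473 genes with the block, of 14308 genes tested.

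Conditions that did not overlap at all give a view that needs no fitted model but still rests on the TMM scaling of the CPM. An exact permutation test of 3 libraries against 3 cannot give a two-sided p under 0.1, so these are counts without a test. For LPS against PBS, 4 of 8 members did not overlap (Edn1, Ednrb, and Hbegf higher, Igf1 lower), and 58.4% of all genes did not. The count for LPS + 3′SL against 3′SL was 3 (Edn1 and Hbegf higher, Igf1 lower), against 46.6% of all genes. For 3′SL against PBS it was 1, Ednrb, against 17.5%, and for LPS + 3′SL against LPS it was 1, Edn1, against 12.7%. In all 6 pairs of libraries of the same set, 3′SL went with a higher level of Ednrb and Vegfa and a lower level of Hbegf, Inhba, and Igf1, which is 5 of 8 members where 14.6% of all genes kept 1 direction.

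**Figure D4:**
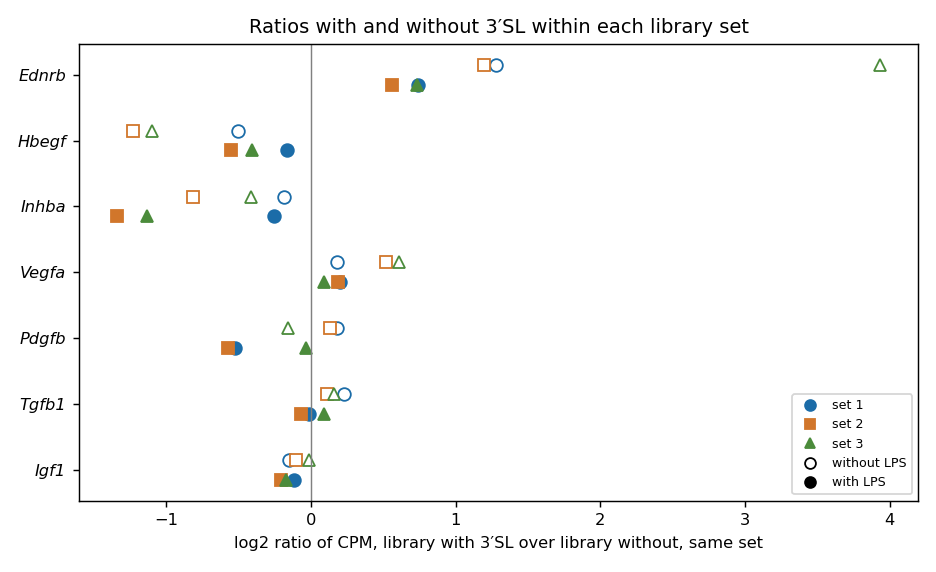
Log2 ratio of CPM between the library with 3′SL and the library without it in the same set, for 7 members. Open symbols are pairs without LPS and filled symbols pairs with LPS, 3 of each per gene. Ednrb and Vegfa lie to the right of 0 and Hbegf, Inhba, and Igf1 to the left in all 6 pairs. Edn1 is left out because its libraries without LPS hold few reads.

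Per kilobase of exon, the order of the members in PBS was led by Igf1 (53.2 ± 6.25 CPM per kb, SD, n = 3), Tgfb1 (41.2 ± 5.18), and Vegfa (22.4 ± 12.2). Pdgfb (10.2 ± 7.26) and Ednrb (4.30 ± 1.36) followed, then Inhba (1.01 ± 1.16) and Hbegf (0.9999 ± 0.789), and Edn1 (0.0784 ± 0.0977) stood just above Ereg (0.0349 ± 0.0304) and Areg (0.0158 ± 0.0273). The ranges of Igf1 and Tgfb1, of Vegfa and Pdgfb, of Inhba and Hbegf, and of the lowest 3 overlapped. With LPS, Edn1 rose to 19.0 ± 10.3 CPM per kb, in ranges that overlapped those of Vegfa (19.9 ± 9.21) and, for Vegfa, those of Ednrb (23.2 ± 10.1), while Tgfb1 (49.2 ± 3.40) and Igf1 (40.9 ± 3.89) no longer overlapped. With LPS + 3′SL, Ednrb (37.6 ± 18.0 CPM per kb) overlapped Tgfb1 above it (49.4 ± 5.75) and Igf1 below it (36.4 ± 3.38), and Edn1 (1.78 ± 1.25) was between Hbegf (2.77 ± 1.13) and Inhba (1.38 ± 1.19), with ranges that overlapped both. With 3′SL alone the order of the upper 4 was Igf1, Tgfb1, Vegfa (31.6 ± 20.8 CPM per kb), and Ednrb (24.0 ± 21.8), each overlapping its neighbour, as Ednrb also did with Pdgfb (10.0 ± 5.74). Edn1 and Ednrb changed their rank the most: in PBS, 3′SL, LPS, and both agents, Edn1 was 8th, 8th, 5th, and 7th of 10, and Ednrb 5th, 4th, 3rd, and 2nd.

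Beside the members, 75 of 95 other genes of the 5 pathway lists were tested. LPS raised 17 and lowered 11 of them, 37.3% against 38.5% of all genes, and LPS + 3′SL against 3′SL raised 14 and lowered 10, 32% against 29.2%. For 3′SL with or without LPS and for the interaction, 0 of the 75 were called in edgeR. With the block 2 were called higher for 3′SL against PBS (2.67%, against 2.84% of all genes), 0 for LPS + 3′SL against LPS (against 1.45%), and 3 lower in the interaction (4%, against 1.55%). DESeq2 called 0, 0, and 1 of them, where 0.615%, 0.79%, and 0.308% of all genes were called.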

How the data were processed

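The 12 libraries were grouped by the labels. For each gene, the authors deposited whole-number read counts with no normalization. The submitters' processing notes name FastQC, Trimmomatic, STAR, HTSeq, and DESeq2, while versions, genome build, annotation, and strand setting are not given in the sources used here. Identifiers were matched to GENCODE M21 (GRCm38), which gave 42462 names, exonic lengths, and positions. In R 4.3.3, edgeR 4.0.16 kept genes by filterByExpr, scaled by TMM factors (0.700 to 1.30), and fitted 1 mean per condition over all libraries. The factors were 1.08 to 1.30 in libraries without LPS and 0.700 to 0.939 in those with it. Comparisons across LPS thus depend on this scaling. The fit was first tested on simulated counts with the same spread for all genes and no library sets. That test does not cover data with such sets. DESeq2 1.42.0, other scalings and filters, only the conditions compared, leaving out each library, and the library sets as a block were alternatives. Blocks without each set were added after seeing the data. Replicates differed by more than sampling noise (chi-square of at least 15.6 per gene). The sets were found by clustering residuals, whose mean correlation was 0.596 within and −0.346 between sets. They were cut from these same correlations, so a higher value within sets follows from the choice. Intervals and floors of 3 counts cover counting error only.

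The members and lists were chosen with earlier results of these data known. All members are named, and per pathway list up to 4 genes with the largest change among those called for LPS against PBS, every listed gene called for 3′SL or the interaction, and the 5 genes most like Edn1. Genes outside this rule are marked as such. Marker lists of dendritic cells, B cells, and T and NK cells summed to at most 1.61, 2.75, and 0.161 CPM. That of neutrophils and granulocyte precursors summed to 133 to 199 CPM in set 1, 237 to 386 in set 2, and 268 to 815 in set 3. The part of these markers in the member levels was not tested.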

Additional observations from a re-analysis of the deposited data

How the results depend on the processing

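The number of members called moved with the test and the block. For LPS against PBS it was 2, but 1 with at least 10 counts in every library, which removes Edn1 (4724 of 11388 genes called). It was 7 with the block and total counts (4 higher, 3 lower). It was 4 with the library sets as a block and also with the block without set 1, 2, or 3. The block fits without a set called 5989 of 14198, 5717 of 14426, and 6043 of 14396 genes in that order. For 3′SL against PBS the number of members called went from 0 to 1 with DESeq2, the block, the block and total counts (365 of 14308 genes called), and the block without set 3. For LPS + 3′SL against LPS it went from 0 to 1 with DESeq2, the block, the block and total counts (218 of 14308 genes called), and the block without set 1 (1 of 14198), and to 2 without set 3. For LPS + 3′SL against 3′SL it went from 2 to 1 with at least 10 counts in every library (3641 of 11388 genes called) or only the conditions compared (3612 of 13357). It went to 5 with the block and total counts (2 higher, 3 lower) or the block without set 1 (3 higher, 2 lower). With the block without set 3 it was 3, all higher, and without single libraries between 1 and 2. For the interaction it went from 0 to 1, Pdgfb, with the block without set 3, where 457 of 14396 genes were called. Without single libraries, the adjusted p of Edn1 for LPS + 3′SL against LPS lay between 0.117 and 0.553 in edgeR.

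Of 426 log2 fold changes under these alternatives 17 turned their sign, and of 480 without single libraries 34 did. None of these was called in the fit over conditions, and the cause was not tested. Pdgfb became 0.00086 (block) and 0.46 (block without set 3) for LPS against PBS and 0.025 and 0.14 for 3′SL against PBS. Tgfb1 became −0.40 (total counts) and −0.39 (block and total counts) for LPS against PBS, −0.38 (both) for LPS + 3′SL against 3′SL, −0.0017 (DESeq2 and its size factors) and −0.0312 (block without set 3) for LPS + 3′SL against LPS, and 0.013 and 0.012 (total counts, without and with the block) in the interaction, where Igf1 became 0.10 in both. Edn1 for 3′SL against PBS became −0.015 (block and total counts) and −0.24 (block without set 2).

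Without single libraries, the log2 fold changes that turned ranged as follows. For LPS against PBS, Vegfa ranged from −0.61 to 0.36 and Pdgfb from −0.49 to 0.55. For 3′SL against PBS, Edn1 ranged from −0.56 to 1.81, Vegfa from −0.24 to 1.03, Hbegf from −1.97 to 0.13, Pdgfb from −0.65 to 0.73, Igf1 from −0.25 to 0.025, and Inhba from −2.10 to 1.29. For LPS + 3′SL against LPS, Vegfa ranged from −0.24 to 0.58, Hbegf from −0.69 to 0.011, and Tgfb1 from −0.092 to 0.062. For LPS + 3′SL against 3′SL, Vegfa ranged from −0.91 to 0.18, Pdgfb from −0.83 to 0.075, and Inhba from −0.20 to 2.54. In the interaction, Vegfa ranged from −0.89 to 0.38, Hbegf from −0.49 to 1.61, Pdgfb from −1.06 to 0.32, Igf1 from −0.19 to 0.088, and Inhba from −1.95 to 1.45. With 3 libraries per condition and 0 to 20 reads per library, Ereg and Areg could not be compared, and Edn1 without LPS rests on few reads.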
